A study of Mus musculus with 4 samples.

Results

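Neural crest specifiers are the transcription factors that give cells at the edge of the neural plate their neural crest identity and let them leave the epithelium. The 10 specifiers described here were taken by symbol from the 23420 gene symbols counted in cervical motor neurons (MNs): *Sox10*, *Foxd3*, *Tfap2a*, *Tfap2b*, *Snai1*, *Snai2*, *Twist1*, *Pax3*, *Msx1* and *Msx2*. The RNA-seq compared MNs from WT E14 mouse embryonic stem cells (mESCs) with MNs from *Patz1* -/- (*Patz1* KO) cells of the same line, with 2 libraries per genotype. Both genotypes went through the same steps, from mESCs kept in LIF with a MEK and a GSK3 inhibitor to embryoid bodies patterned with retinoic acid and smoothened agonist. The study made several *Patz1* KO clones with a guide RNA to the *Patz1* locus, and the labels do not say which clone gave which library. Replicates are described as independent differentiations, and no sort for MNs before the RNA was taken is given in the sources used here.

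In the embryo, BMP, WNT and FGF signals first induce border factors of the MSX, PAX3 and AP-2 families between the neural plate and the surface ectoderm. These turn on the specifiers proper, among them SNAI2, FOXD3 and SOX10, and SNAI and TWIST proteins repress epithelial genes as the cells detach and migrate. The crest then gives rise to sensory and autonomic neurons, Schwann cells, melanocytes and, in the head, bone and mesenchyme. Several of these genes also work elsewhere: *Twist1*, *Snai1* and *Snai2* in mesoderm-derived mesenchyme, *Tfap2a* in surface ectoderm, *Sox10* in oligodendrocyte precursors, and *Foxd3* in pluripotent cells and in a class of spinal interneurons.

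The total count per library was 14769104 and 15728158 in WT and 23881522 and 17402342 in *Patz1* KO MNs, so 3 counts correspond to between 0.124 and 0.201 CPM (counts scaled to a common library size with edgeR's TMM factors). *Patz1* itself had WT counts of 1363 and 1499 and *Patz1* KO counts of 1154 and 714, at -1.04 on the log2 scale (SE, standard error, 0.0951). The adjusted p was 1.09e-07 in edgeR's quasi-likelihood test, adjusted by Benjamini-Hochberg over all tested genes, and counts over the whole gene do not show the edit itself. Sample titles mention ESCs, but source and cell type labels say MNs, which was used here. The MN markers *Mnx1*, *Isl1* and *Chat* were between 28.1 and 133 CPM in the WT mean, and the pluripotency factor *Pou5f1* had 3 to 7 counts in each library. All fold changes below are *Patz1* KO over WT.

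The specifiers were scarce transcripts that split in direction. *Snai2*, *Twist1*, *Snai1*, *Tfap2b* and *Msx2* were lower in *Patz1* KO MNs, between 3.16-fold (*Msx2*) and 7.63-fold (*Snai2*), *Foxd3* was 5.70-fold higher and *Sox10* 1.88-fold higher. *Tfap2a* did not pass the test, and *Pax3* and *Msx1* had too few counts to be tested. With a threshold of 0.05 on edgeR's adjusted p, 5 of the 10 were thus called lower and 2 higher, where 23.8% of the 14269 genes tested were called lower and 24.1% higher. Among the 2207 tested genes with a mean level in the range of the tested specifiers (0.584 to 2.94 CPM), 24.2% were called lower and 12.6% higher. The filter on low counts asked for 0.604 CPM in 2 libraries. *Tfap2b*, *Snai1* and *Msx2* reached it in no *Patz1* KO library, *Snai2* and *Twist1* in 1, and *Foxd3* in 1 WT library, so these genes were tested only because of the group in which they were high, and their counts are no support for a direction. In these bulk cultures, fewer cells of a type and less RNA per cell cannot be told apart.

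**Figure D1:**
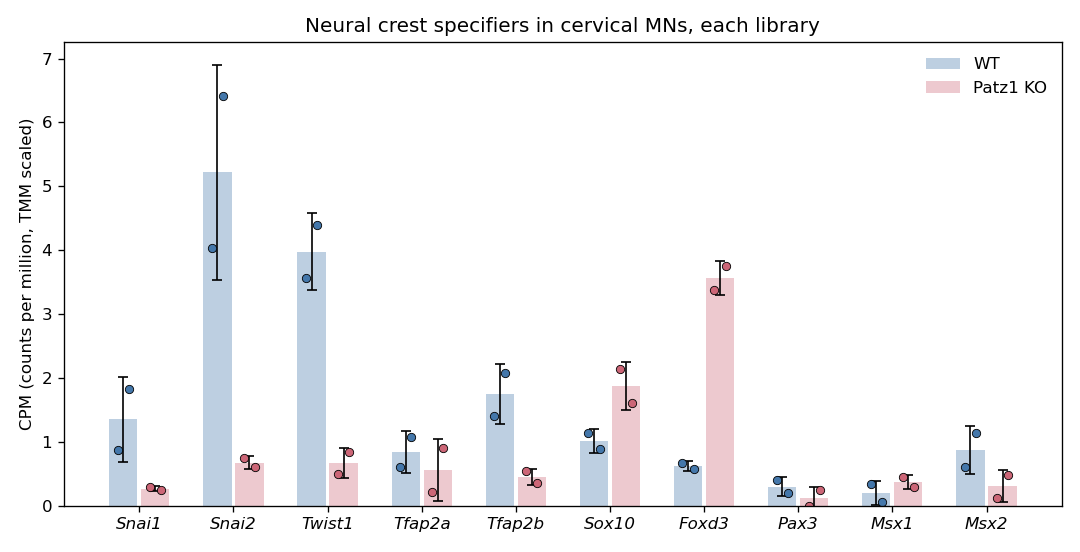
Level of the 10 specifiers in each of the 4 libraries, in CPM on a linear axis. Points are libraries, bars the mean of 2 libraries and whiskers the SD. The WT points of *Snai2* and *Twist1* sit far above their *Patz1* KO points, and *Foxd3* shows the opposite order.

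*Snai2* encodes SLUG, a zinc finger repressor of E-cadherin and the classical mark of premigratory crest. Its locus (GRCm38, the assembly of mm10) is on chromosome 16 between 14705852 and 14709385, and it had WT counts of 60 and 102 and *Patz1* KO counts of 18 and 10. This was 5.22 ± 1.69 CPM in WT and 0.669 ± 0.103 CPM in *Patz1* KO (SD, n = 2 each). *Patz1* KO over WT gave a log2 fold change of -2.93 (SE 0.34, edgeR adjusted p = 1.75e-06). The groups did not overlap, and the WT libraries differed more from each other than the *Patz1* KO libraries did.

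*Snai1*, the founding Snail repressor of mesoderm and crest cells that leave an epithelium, lies on chromosome 2 from 167538195 to 167542814. It had WT counts of 13 and 29 and *Patz1* KO counts of 7 and 4, at mean levels of 1.35 ± 0.672 and 0.263 ± 0.0355 CPM (SD, n = 2 each). Its log2 fold change was -2.31 (SE 0.53, edgeR adjusted p = 0.00165). The fall was smaller without WT replicate 2, the WT library with more counts, at a log2 fold change of -1.68. WT replicate 1, at 0.872 CPM, was above both *Patz1* KO libraries (0.289 and 0.238 CPM).

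*Twist1*, a basic helix-loop-helix factor of cranial crest and mesenchyme, lies on chromosome 12 from 33957671 to 33959829. The WT counts were 53 and 70, those of *Patz1* KO 12 and 14, at mean levels of 3.98 ± 0.597 and 0.664 ± 0.24 CPM (SD, n = 2 each). *Patz1* KO over WT gave a log2 fold change of -2.63 (SE 0.35, edgeR adjusted p = 7.8e-06), and both *Patz1* KO libraries were well below both WT libraries. *Snai2* and *Twist1* were called lower under all 10 alternatives of normalization, filter, test and left-out library, with log2 fold changes from -3.23 to -2.55 and from -2.99 to -2.24.

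The AP-2 factors bind as dimers and act both at the neural plate border and in the crest itself. *Tfap2b*, on chromosome 1 from 19208914 to 19238576, had WT counts of 21 and 33 and *Patz1* KO counts of 13 and 6, at mean levels of 1.74 ± 0.47 and 0.447 ± 0.126 CPM (SD, n = 2 each). It fell by 1.91 on the log2 scale (SE 0.43, edgeR adjusted p = 0.00149). Without WT replicate 2 the value was -1.60, with an edgeR adjusted p of 0.0674.

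*Tfap2a*, on chromosome 13 from 40715302 to 40738376, had WT counts of 9 and 17 and *Patz1* KO counts of 5 and 15, and the groups overlapped. Its log2 fold change was -0.75, with a 95% interval from -1.98 to 0.49 (edgeR adjusted p = 0.31), so a fall of the size seen in *Tfap2b* lay within the interval. The 2 *Patz1* KO libraries differed more from each other than the group means did. Without *Patz1* KO replicate 1 the value was 0.09 (adjusted p = 0.917), and without *Patz1* KO replicate 2 it was -1.99 with an edgeR adjusted p of 0.0261. Exons of *Tfap2a* overlap those of 3 antisense genes (*Gm26688*, *Gm47061* and *Gm47067*), and the strand setting of the counting is not given in the sources used here, so its counts are uncertain.

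*Foxd3* encodes a forkhead repressor that keeps crest cells multipotent. It is a gene of 1 exon on chromosome 4 from 99656299 to 99658622, with an overlap only with the miRNA gene *Gm23366*. It had WT counts of 10 and 9 and *Patz1* KO counts of 82 and 63, at mean levels of 0.618 ± 0.0744 and 3.57 ± 0.264 CPM (SD, n = 2 each). The rise was 2.51 on the log2 scale (SE 0.35, edgeR adjusted p = 1.36e-05). Both *Patz1* KO libraries were above both WT libraries, and the replicates of each genotype lay close together. All 9 alternatives that kept the gene called it higher, with log2 fold changes from 2.40 to 2.64.

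*Sox10*, which drives glial and melanocyte fates in the crest and is needed for oligodendrocytes in the cord, lies on chromosome 15 from 79154908 to 79165240. It had WT counts of 17 and 14 and *Patz1* KO counts of 52 and 27, at mean levels of 1.01 ± 0.184 and 1.88 ± 0.378 CPM (SD, n = 2 each). *Patz1* KO over WT gave a log2 fold change of 0.91 (SE 0.37), and the edgeR adjusted p of 0.0489 was just below the threshold. The groups did not overlap in CPM, but 6 of 10 alternatives no longer called it. With DESeq2's Wald test the adjusted p was 0.25, and with library size alone in place of TMM it was 0.0537 in edgeR.

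*Pax3*, a paired-box factor of the border and dorsal neural tube on chromosome 1 (78101267 to 78197134), had WT counts of 6 and 3 and *Patz1* KO counts of 0 and 4. *Msx1*, a homeobox effector of BMP signalling on chromosome 5 (37820485 to 37824583), had WT counts of 5 and 1 and *Patz1* KO counts of 11 and 5. Neither passed the filter, their groups overlapped, and no difference was detectable at this depth. Without the filter on low counts, edgeR's 95% interval of the log2 fold change ran from -3.78 to 0.85 for *Pax3* and from -0.85 to 2.80 for *Msx1*.

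*Msx2*, the paralog of *Msx1* on chromosome 13 (53466884 to 53473074), had WT counts of 9 and 18 and *Patz1* KO counts of 3 and 8, at mean levels of 0.868 ± 0.373 and 0.300 ± 0.250 CPM (SD, n = 2 each). It fell by 1.66 on the log2 scale (SE 0.61, edgeR adjusted p = 0.0331). Of the 5 falls it had the largest adjusted p. It was not called by DESeq2's Wald test (adjusted p = 0.228), nor without WT replicate 2 (log2 fold change -1.11) or without *Patz1* KO replicate 1 (-0.86). In all, 2 members were called lower without WT replicate 2, *Snai2* and *Twist1*, and between 4 and 6 without any other library. Groups did not overlap in 5 members that were lower and 2 that were higher, against 37.2% and 37.0% of all genes tested.

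The 250 bases before the start of *Snai1*, *Twist1* and *Foxd3* are shown for 2 specifiers that fell and the one that rose most. They were copied from the RefSeq promoter table (build GRCm38.p6, 5′ to 3′ along the gene, plus strand of the genome in each case), which held 7 of the 10 members. *Sox10*, *Snai2* and *Pax3* were not among them. Capitals mark the letters CAGGTG on either strand (read as CACCTG on the other), the E-box that Snail and Zeb repressors bind, and GGGAGGG on either strand (read as CCCTCCC on the other), a G-rich string bound by MAZ, the zinc finger protein after which PATZ1 was also named MAZR.
*Snai1*, chr2:167537945-167538194: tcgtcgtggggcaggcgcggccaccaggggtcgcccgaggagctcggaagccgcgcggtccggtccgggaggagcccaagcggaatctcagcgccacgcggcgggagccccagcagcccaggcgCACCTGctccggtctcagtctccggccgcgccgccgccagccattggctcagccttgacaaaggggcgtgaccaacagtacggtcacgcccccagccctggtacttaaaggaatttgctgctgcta
*Twist1*, chr12:33957421-33957670: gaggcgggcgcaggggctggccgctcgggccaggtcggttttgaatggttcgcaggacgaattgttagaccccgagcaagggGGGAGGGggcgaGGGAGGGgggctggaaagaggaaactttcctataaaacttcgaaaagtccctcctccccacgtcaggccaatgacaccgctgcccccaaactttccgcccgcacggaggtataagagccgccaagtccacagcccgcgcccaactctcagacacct
*Foxd3*, chr4:99656049-99656298: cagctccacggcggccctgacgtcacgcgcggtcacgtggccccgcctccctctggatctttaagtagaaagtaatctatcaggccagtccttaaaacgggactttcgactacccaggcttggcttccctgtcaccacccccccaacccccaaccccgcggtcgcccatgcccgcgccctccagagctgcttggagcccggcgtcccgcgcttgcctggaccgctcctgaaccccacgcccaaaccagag

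The *Snai1* window held 1 E-box, 126 bases before the start, and so did that of *Msx1*, 210 bases before it. In the table as a whole, 17.2% of 32851 such windows held one. GGGAGGG was found in the *Twist1* window alone, at 2 places 168 and 156 bases before the start, against 19.7% of all windows. Neither string was present in the windows of *Foxd3*, *Msx2*, *Tfap2a* (2 start sites) and *Tfap2b*. No member's window held both strings. A match is a description of these letters and no evidence of binding.

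The make-up of the specifier counts differed between the genotypes as well as their sum. The 10 genes together had WT counts of 203 and 296 and *Patz1* KO counts of 203 and 156, or 13.6 and 18.6 CPM against 8.37 and 9.30 CPM. *Snai1*, *Snai2* and *Twist1* together made up 62.1% and 67.9% of this total for WT, but 18.2% and 17.9% for *Patz1* KO. *Sox10* and *Foxd3* took 13.3% (95% exact Clopper-Pearson interval 8.95 to 18.8) and 7.77% (4.99 to 11.4) in WT. In *Patz1* KO they took 66.0% (59.1 to 72.5) and 57.7% (49.5 to 65.6). These groupings of genes were made after their values were seen, so the shares are a description, and the intervals cover counting error only.

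**Figure D2:**
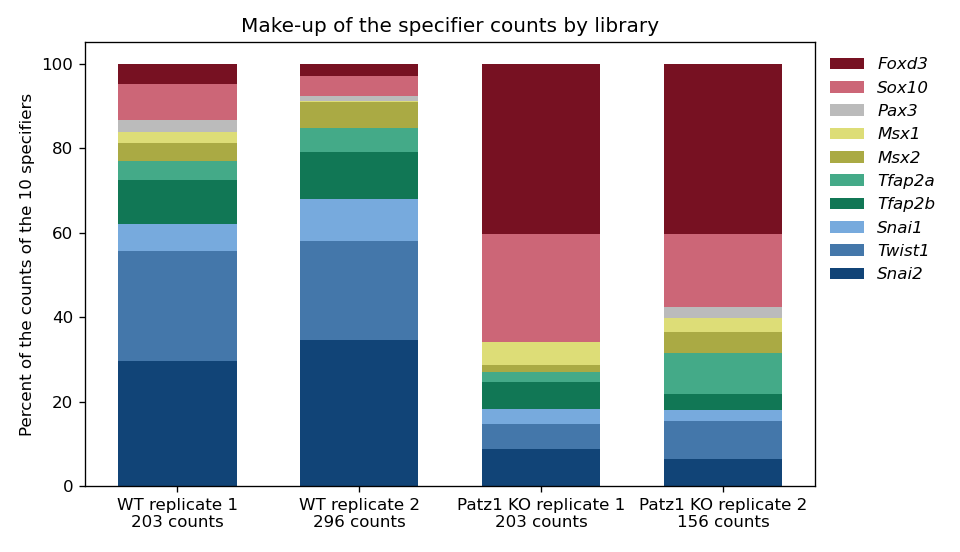
Share of each specifier in the counts of all 10, in percent, for each library, with the total under each bar. The blue blocks of *Snai1*, *Snai2* and *Twist1* fill over 60% of both WT bars, and the red blocks of *Foxd3* and *Sox10* fill 57.7% and 66.0% of the *Patz1* KO bars.

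Scaled by exon length in GENCODE M21, *Snai2* (2.58 CPM per kb) and *Twist1* (2.44 CPM per kb) were the most abundant specifiers in WT MNs, and their ranges over the 2 libraries overlapped. *Snai1* (0.831 CPM per kb) stood apart below them. *Sox10*, *Tfap2b*, *Foxd3*, *Msx2* and *Tfap2a* followed between 0.331 and 0.171 CPM per kb, where neighbours in the order overlapped. *Msx1* and *Pax3* were lowest (0.0643 and 0.0478 CPM per kb). In *Patz1* KO MNs *Foxd3* led with 1.53 CPM per kb, followed by *Sox10* with 0.615 CPM per kb, and neither overlapped the gene after it. *Twist1* and *Snai2* came next (0.408 and 0.331 CPM per kb) and overlapped each other. By level in CPM, between 1.44% (*Msx2*) and 16.9% (*Snai2*) of all tested genes lay below a tested specifier, and the median tested gene was at 25.3 CPM.

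Family relatives of the specifiers were read from the same fit. Of a list of 12 relatives, 5 passed the filter, and 2 of these rose and 3 fell, where 24.1% of all genes tested were called higher and 23.8% lower. The median log2 fold change was -2.63 against -1.79 for the tested specifiers. *Foxd2* and *Tfap2c* were below the filter's 0.604 CPM in both *Patz1* KO libraries. They were tested only because of WT, and their counts are no support for a direction. The same holds for genes of the lists below that were this low in both libraries of 1 group. The SOXE genes *Sox8* and *Sox9*, which share crest and glial roles with *Sox10*, both rose. *Sox8* had WT counts of 97 and 90 and *Patz1* KO counts of 400 and 232, a log2 fold change of 1.33 (SE 0.168, edgeR adjusted p = 4.74e-06). *Sox9*, which neural progenitors and radial glia use as well, was 49.7 ± 2.34 CPM in WT and 71.7 ± 3.37 CPM in *Patz1* KO (SD, n = 2 each). Its log2 fold change was 0.53.

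The forkhead genes *Foxd1* and *Foxd2*, known from kidney stroma and paraxial mesoderm among other places, moved against *Foxd3*. *Foxd1* had WT counts of 155 and 200 and *Patz1* KO counts of 55 and 22, a log2 fold change of -2.63 (edgeR adjusted p = 1.18e-07). *Foxd2* had WT counts of 28 and 44 and *Patz1* KO counts of 8 and 7. *Tfap2c*, an AP-2 gene of trophoblast, germ cells and ectoderm, had WT counts of 12 and 11 and *Patz1* KO counts of 1 and 3, a ratio of WT to *Patz1* KO of 7.66 with a 95% counting interval from 2.62 to 30.5. Its edgeR adjusted p was 0.00307, and DESeq2's was 0.0564. *Twist2* (5 and 16 counts in WT, 3 and 2 in *Patz1* KO) and *Msx3* (4 and 9 against 1 and 4) did not pass the filter. *Pax7*, *Snai3*, *Tfap2d*, *Tfap2e* and *Foxd4* had at most 3 counts in any library.

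**Figure D3:**
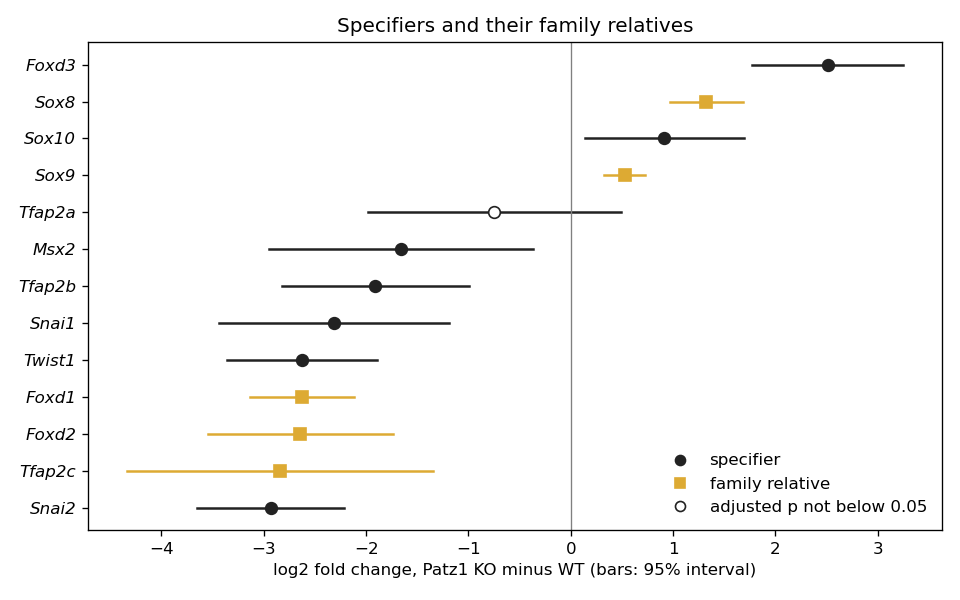
Log2 fold change (*Patz1* KO minus WT) with its 95% interval for the 8 tested specifiers (circles) and 5 tested relatives (squares). The open circle is *Tfap2a*, whose interval from -1.98 to 0.49 crosses 0, and *Foxd3*, *Sox8*, *Sox10* and *Sox9* lie to the right of 0.

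Genes that act before the specifiers, at the neural plate border and in the dorsal neural tube, were mostly too low to test. Of 20 listed, 9 passed the filter, 4 fell and 0 rose, with a median log2 fold change of -0.90 against -0.0014 over all tested genes. Over those genes, 23.8% were called lower and 24.1% higher. In edgeR 0 genes of the list were higher at an unadjusted p below 0.05 either, and DESeq2 called 0 higher. *Bmp4*, a ligand that induces *Msx1*, *Msx2* and *Snai2* at the border, had WT counts of 87 and 101 and *Patz1* KO counts of 28 and 22, a log2 fold change of -2.31 (edgeR adjusted p = 1.69e-06). *Id3* and *Id1*, direct targets of BMP signalling, fell by 1.62 and 1.04 on the log2 scale. Their relative *Id2*, with the highest mean over the 4 libraries, was 77.4 ± 0.956 CPM in WT and 79.3 ± 9.91 CPM in *Patz1* KO (SD, n = 2 each), with a log2 fold change of 0.03.

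Of 18 other crest transcription factors, 1 entry (written with an outdated symbol) had no row, 14 were tested, 9 fell and 1 rose, with a median log2 fold change of -0.81. In the whole table, 23.8% of tested genes were called lower and 24.1% higher. *Foxc1* and *Foxc2*, forkhead factors of cranial crest and paraxial mesoderm, both fell. *Foxc2* had WT counts of 53 and 64 and *Patz1* KO counts of 4 and 1, and *Foxc1* fell from 86 and 122 to 15 and 12, by 3.34 on the log2 scale. *Hey1*, a Notch target, fell by 1.04 and *Nr2f1*, an orphan receptor widely used in the neural tube, by 0.52 on the log2 scale.

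Receptors and lineage genes downstream of the specifiers went both ways, with 5 of 19 tested genes higher, 4 lower and 10 not called. Over all genes tested, 24.1% were called higher and 23.8% lower, so this split is close to that of the whole table. The median log2 fold change of the list was 0.10. *Ntrk3*, the receptor for neurotrophin-3, had WT counts of 72 and 54 and *Patz1* KO counts of 378 and 229. It rose by 1.84 (edgeR adjusted p = 4.79e-07), and *Fabp7*, the radial glia and Schwann cell precursor lipid-binding protein, by 0.68 on the log2 scale. *Dbh*, the noradrenaline-making enzyme of autonomic neurons, went from 48 and 55 counts to 8 and 5, a log2 fold change of -3.37. *Cdh19*, a cadherin of Schwann cell precursors, had 0 counts in every library.

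**Figure D4:**
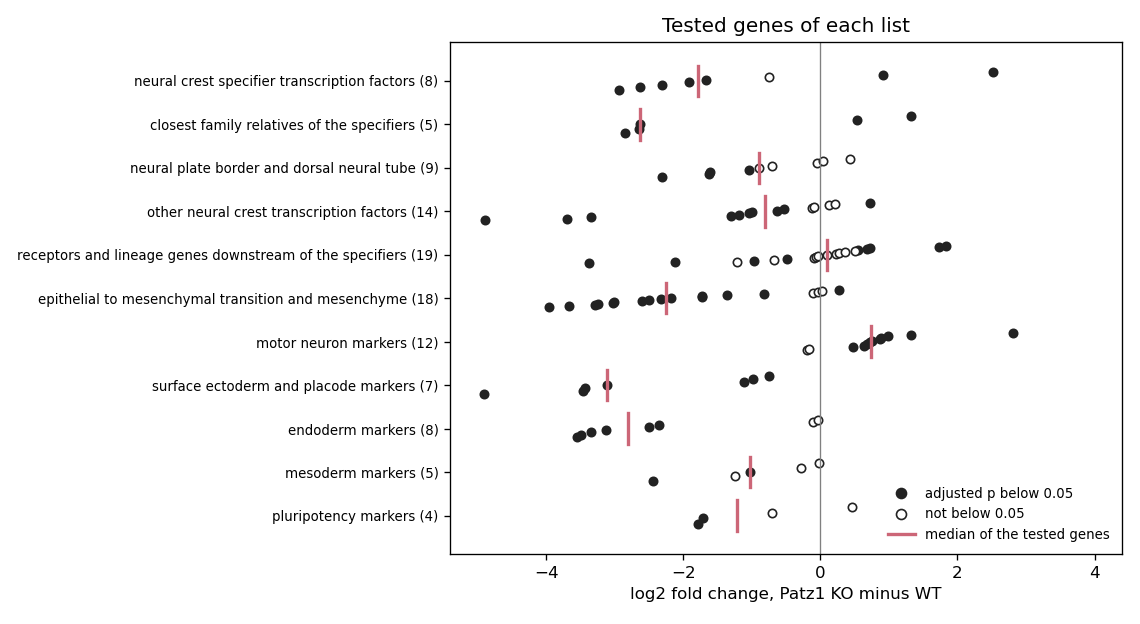
Log2 fold change of every tested gene in the 11 lists, filled where the adjusted p from edgeR was below 0.05, with a red bar at each list's median and the number tested in parentheses. The specifiers spread from -2.93 to 2.51, the mesenchyme, surface ectoderm and endoderm lists lie mostly left of 0, and the MN markers mostly right of it.

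Markers of mesenchyme and of other cell types moved with the genotype as well. Of 18 genes of epithelial to mesenchymal transition and mesenchyme, all tested, 14 fell and 1 rose, with a median log2 fold change of -2.25. Among all tested genes, 23.8% were called lower and 24.1% higher. The falls in the list were not of mesenchyme genes alone, since they included *Cdh1*, the epithelial gene of E-cadherin. It had WT counts of 300 and 378 and *Patz1* KO counts of 75 and 37, a log2 fold change of -3.02 (edgeR adjusted p = 6.48e-10). *Col3a1*, *Pdgfra* and *Fn1*, a collagen, a growth factor receptor and a matrix protein of mesenchyme, fell by 3.24, 3.96 and 1.72 on the log2 scale. *Vim*, an intermediate filament of mesenchyme and neural progenitors and the most abundant gene of the list, had a log2 fold change of -0.04 (95% interval -0.26 to 0.18). Summed over the list, the level was 1934 and 1932 CPM in WT and 1615 and 1531 CPM in *Patz1* KO. *Vim* alone was at 848 CPM in the WT mean and 825 CPM in the *Patz1* KO mean. The sum thus does not show the size of the falls.

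Of 11 surface ectoderm and placode markers, 7 were tested and all 7 fell, with a median log2 fold change of -3.11. Both this list and the endoderm list below compare with 23.8% of all tested genes called lower and 24.1% higher. The summed level of the surface ectoderm and placode markers was 66.1 to 67.6 CPM in WT and 12.8 to 15.8 CPM in *Patz1* KO. The simple-epithelium keratins *Krt8* (log2 fold change -3.43) and *Krt18* (-3.46) and the adhesion gene *Epcam* (-3.11) had the smallest p. The stratified-epithelium genes *Krt5*, *Krt14* and *Trp63* had at most 2 counts in any library. Of 8 endoderm markers, all tested, 6 fell and 0 rose, with a median log2 fold change of -2.81 and a summed level of 60.5 to 65.7 CPM in WT and 10.5 to 12.4 CPM in *Patz1* KO. The transcription factors *Foxa2* (log2 fold change -2.35) and *Gata4* (-3.49) and the endocytic adaptor *Dab2* (-3.34) had the smallest p. *Foxa2* was the most abundant of the list, at 28.2 CPM in the WT mean and 5.56 CPM in the *Patz1* KO mean. Which cells its RNA came from was not tested. *Gata4*, *Sox17* and *Ttr* were below the filter's 0.604 CPM in both *Patz1* KO libraries, so they were tested only because of WT. In both lists 0 genes were higher at an unadjusted p below 0.05 in edgeR and 0 in DESeq2, and the part of these cell types in the specifier values was not tested.

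Of 10 mesoderm markers, 5 were tested and 2 fell, the endothelial genes *Cdh5* (log2 fold change -2.44) and *Kdr* (-1.03). Calls here and in the pluripotency list below compare with 23.8% of all tested genes called lower and 24.1% higher. *Tcf15*, a factor of somites, had a log2 fold change of -1.25 with an edgeR adjusted p of 0.0519. *T*, *Mesp1* and *Myf5*, which define early mesoderm and muscle, had at most 1 count in any library. *Meox1*, also of the list, did not pass edgeR's filter, at WT counts of 8 and 26 and *Patz1* KO counts of 2 and 2. DESeq2's Wald test, run without that filter, called it lower (adjusted p = 0.00979). The median log2 fold change of the list was -1.03, and its summed level was 10.4 to 12.8 CPM in WT and 4.71 to 5.44 CPM in *Patz1* KO. Of 7 pluripotency markers, 4 were tested and 2 fell, *Klf4* (log2 fold change -1.78) and *Dppa5a* (-1.71), the latter not called by DESeq2 (adjusted p = 0.133), while *Nanog* (-0.70) missed the threshold with an edgeR adjusted p of 0.0551. The median of that list was -1.21, and its summed level was 9.39 to 12.3 CPM in WT and 6.02 to 7.99 CPM in *Patz1* KO.

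MN markers went the other way. Of 12, all tested, 10 rose and 2 were not called, with a median log2 fold change of 0.74 and a summed level of 773 and 723 CPM in WT against 1236 and 1129 CPM in *Patz1* KO. By comparison, 24.1% of all tested genes were called higher and 23.8% lower. *Nkx6-2*, a ventral progenitor and MN factor, rose by 2.81 and *Prph*, the intermediate filament peripherin, by 1.33 on the log2 scale. *Chat*, which makes acetylcholine, rose by 0.99, *Mnx1*, the MN selector HB9, by 0.88 and *Slc18a3*, the vesicular transporter of acetylcholine, by 0.73 on the log2 scale. *Isl1* had a log2 fold change of -0.19 and was not called (edgeR adjusted p = 0.0768).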

How the data were processed

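RNA was measured by ribosomal-depleted stranded RNA-seq in 2 WT and 2 *Patz1* KO libraries, grouped by the labelled genotype. The authors mapped reads to mm10, and the deposited values are raw counts per gene symbol. The submitters' processing notes name TopHat2 2.1.1, Bowtie2 2.3.1, featureCounts 1.6.2 and DESeq2. The annotation and strand setting are not given in the sources used here.

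Counts were scaled with TMM and filtered with filterByExpr (minimum count 10), and 14269 of 23420 genes were tested with edgeR 4.0.16 (limma 3.58.1, R 4.3.3). The quasi-likelihood test was 2-sided, with Benjamini-Hochberg adjustment over all genes tested and a threshold of 0.05. Standard errors (SE) were derived from the F statistic and the fold change. The biological coefficient of variation was 7.71%, and replicates differed by more than counting error (chi-square per gene 9.87 in WT and 22 in *Patz1* KO). An exact permutation test of 1 gene cannot go below 0.333 with 2 libraries per group, so none was run. The test was also run on simulated counts that gave every gene the same dispersion, so that run is no check on genes whose dispersion differs. Positions and exon lengths came from GENCODE M21 on GRCm38, the assembly of mm10, and promoters from RefSeq. Python 3.11.15, pandas 2.3.3, numpy 2.4.6 and matplotlib 3.10.9 were used for these and the plots.

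The members and the 10 other lists were chosen with earlier results of these data known. Besides the members, *Patz1* and all family relatives, the text names the 3 tested genes with the smallest p and the most abundant gene of each list, and *Mnx1*, *Isl1* and *Chat*. A gene that this rule takes from the list of receptors and lineage genes is not reported here. *Pou5f1*, *T*, *Mesp1*, *Myf5*, *Meox1*, *Cdh1*, *Sox17*, *Ttr*, *Krt5*, *Krt14*, *Trp63* and *Cdh19* were named after their values were seen. So were the genes of the closing observations. The alternatives replaced TMM by size factors from DESeq2 or by library size, dropped the filter or asked for 10 counts in each library, blocked on replicate number, used the Wald test of DESeq2 1.42.0, or left out 1 library.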

Additional observations from a re-analysis of the deposited data

How the results depend on the processing

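Of 75 log2 fold changes of specifiers recomputed under the alternatives, 74 kept their sign and 62 also their side of the threshold. Of 140 recomputed counts of calls, 123 were within 1.5 times the reported count. The exception in sign was *Tfap2a*, at 0.0885 without *Patz1* KO replicate 1 and -1.99 without *Patz1* KO replicate 2, where the cause was not tested. Specifiers called higher went from 2 to 1 with library size alone, with at least 10 counts in every library, with the replicate block and with DESeq2's Wald test, and ranged from 1 to 2 with a library left out. Specifiers called lower went from 5 to 2 with at least 10 counts in every library, a filter that by construction removes genes low in 1 group, and ranged from 2 (without WT replicate 2) to 6. With that filter, calls went from 5 to 3 among the relatives, from 6 to 2 in endoderm and from 2 to 1 in mesoderm, and with DESeq2's Wald test from 2 to 1 in pluripotency. With a library left out, the mesoderm list had 2 to 4 calls and the pluripotency list 1 to 3, and genes called lower in the whole table ranged from 2175 (without WT replicate 2) to 3831, against 3392. Such fits assume that the lone library varies like those of the other group. The replicate numbers are not said to mark a shared day, and the deviations of same-numbered libraries correlated at r = 0.0413 over genes. With the replicate block edgeR called 3712 genes higher and 3651 lower, and *Sox10* had a log2 fold change of 0.89 (adjusted p = 0.0577). DESeq2 called 2672 genes higher and 2444 lower, and 5055 of its 5116 calls were among edgeR's 6837. Scaling moved the median log2 fold change of all genes from -0.0014 to -0.0298 at most. *Pax3* and *Msx1*, at 0 to 6 and 1 to 11 counts per library, were too low for a difference to be seen at this depth.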

Other observations

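*En1*, the marker of V1 interneurons of the ventral cord, a class that also uses *Foxd3*, was picked after its values were seen. It had WT counts of 10 and 9 and *Patz1* KO counts of 43 and 36, a log2 fold change of 1.64 (SE 0.399, edgeR adjusted p = 0.00246). The part of V1 cells in the *Foxd3* counts was not tested. *Tyr*, the pigment enzyme of melanocytes, was at 70.1 ± 0.894 CPM in WT and 36.2 ± 15.4 CPM in *Patz1* KO (SD, n = 2 each), while the melanocyte genes *Dct* and *Pmel* were at 0.195 to 1.26 CPM in the group means. *Tyr* fell by 0.97 on the log2 scale (edgeR adjusted p = 0.000196, DESeq2 adjusted p = 0.0793, which does not call it), and *Dct* had a log2 fold change of -0.04.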
